A study of Mus musculus with 8 samples.

Results

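Translesion synthesis is the copying of damaged DNA by specialised polymerases, and 10 mouse genes of this pathway were followed on arrays of embryonic stem (ES) cells given cisplatin. The set was given by gene symbol: the Y-family polymerase genes Polk, Polh, Poli and Rev1, the polymerase theta gene Polq, the polymerase zeta genes Rev3l and Mad2l2, and the ubiquitin genes Rad18, Ube2a and Ube2b. Probe sets that list one of these symbols and no other gene were found for 9 of the 10 genes, 20 probe sets in all, among 17097 genes and 28898 probe sets read in the same way. Polq had no such probe set and was not analysed here. The brightest probe set of a gene, by its mean across the 8 arrays, leads, and the remaining ones are given beside it.

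The treated group was 4 samples of ES cells kept 8 h with 2.5 µM cisplatin, and the control group 4 samples kept 8 h with an equal volume of the solvent dimethyl sulfoxide. All 8 samples came from HPRT-deficient cells of strain C57BL/6 at passages 19 to 22, passaged on feeder cells and then on gelatin, and each was read on 1 array, numbered 3 to 6 in each group. Whether these were separate cultures is not stated, so a p-value reflects the spread between the samples as deposited and may be technical. Because the RNA came from whole cultures, fewer cells of a type and less RNA per cell cannot be told apart.

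Cisplatin forms adducts and crosslinks on DNA that stall the replicative polymerases. The RAD6 enzymes (encoded by Ube2a and Ube2b) and the ligase RAD18 then attach ubiquitin to the sliding clamp PCNA, to which the Y-family polymerases bind through ubiquitin-binding domains. A Y-family polymerase can insert a base opposite the lesion, REV1 serves as a scaffold for its relatives, and polymerase zeta (REV3L with MAD2L2, also called REV7, and the POLD2 and POLD3 subunits) extends from the inserted base.

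With cisplatin Polk was 2.16-fold higher and Rev1 1.37-fold higher. Rev3l fell by 0.26 and Polh by 0.17 on the log2 scale, both close to the threshold. The other 5 genes (Poli, Mad2l2, Rad18, Ube2a and Ube2b) did not pass the test. Of the Y-family genes Polk and Rev1 were thus higher, Polh was lower and Poli was at -0.05 ± 0.06 (log2 fold change ± SE, 4 arrays against 4). By limma with Benjamini-Hochberg adjustment over all 17097 genes, 2 of the 9 genes were higher and 2 lower at an adjusted p under 0.05. Over all genes tested 11.6% were higher and 7.69% lower, or 19.3% in either direction. These shares include 5358 genes below the level of background probes in both groups, and none of the 9 was among them. A fit without those dim genes called 2264 of 11739 genes higher and 1491 lower, and still 2 and 2 of the 9. The values of the groups did not overlap for the same 4 genes (Polk, Rev1, Rev3l and Polh), as was the case for 24.3% of all genes. The median change of the 9 genes was 0.02 on the log2 scale, and that of all genes was 0.01. When each array was centred on its median, which differed by 0.13 between the groups, the calls among all genes became 1088 higher and 3925 lower, against 1989 higher and 1314 lower as deposited. The same centring left 2 of the 9 genes higher and made 4 lower, with the median gene of all 17097 at -0.12.

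**Figure D1:**
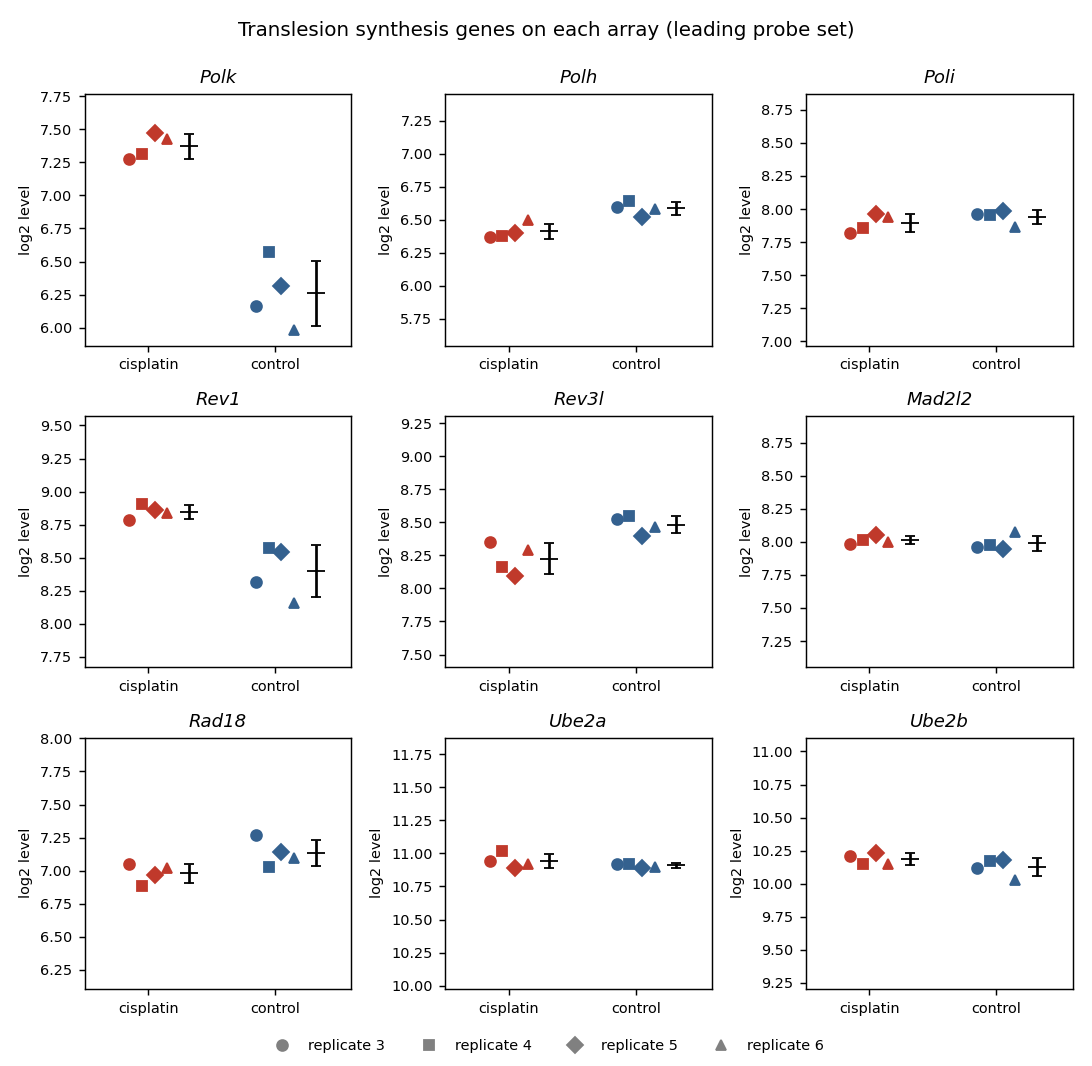
Log2 level of the leading probe set of each of the 9 genes on every array, cisplatin to the left and control to the right, with marker shapes for the replicate number and black bars for mean ± SD (n = 4); every panel spans the same log2 range. Polk and Rev1 lie above their controls on every cisplatin array, Polh and Rev3l below, and the groups overlap for the other 5 genes.

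Promoter sequence is shown whole for Polk and Polh and in a short stretch for Rev1, to let the letters before the start be read beside the response. The sequences are RefSeq's, of build GRCm38.p6, and cover the 250 bases before an annotated start, written 5′ to 3′ along the gene. Capitals mark matches on either strand to the letters searched: GGGCGG (the GC box bound by SP1), CACGTG (an E-box), CCAAT, TGACGTCA (the cAMP response element), CGCATGCG (the core of the NRF1 site), TTTCCCGC and TTTGGCGC (E2F motifs) and the p53 half-site. Polk lies at chr13:96480687-96542579 on the minus strand, and its 5′-most start has the window chr13:96542580-96542829. Polh lies at chr17:46171355-46202641 on the minus strand, with the window chr17:46202642-46202891.
Polk: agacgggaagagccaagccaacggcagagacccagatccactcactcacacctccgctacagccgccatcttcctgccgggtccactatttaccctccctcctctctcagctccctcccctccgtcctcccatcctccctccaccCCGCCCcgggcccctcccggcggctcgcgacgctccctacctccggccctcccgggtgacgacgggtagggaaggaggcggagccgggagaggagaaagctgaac
Polh: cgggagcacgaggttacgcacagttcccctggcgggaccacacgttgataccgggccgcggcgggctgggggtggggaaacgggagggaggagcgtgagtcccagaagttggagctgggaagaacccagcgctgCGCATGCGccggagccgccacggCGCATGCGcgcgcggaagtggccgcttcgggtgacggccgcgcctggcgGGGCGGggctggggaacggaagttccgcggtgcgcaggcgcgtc
The Polk window holds 1 GC box and none of the other letters searched. The Polh window holds 1 GC box and 2 copies of CGCATGCG, letters found in 1.55% of 32851 windows of the same length, against 32.7% for GGGCGG.

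The p53 half-site was searched because Polk is known as a p53-responsive gene in mouse cells. A single half-site stood 231 to 222 bases before a second annotated Polk start, which lies inside the gene, and a half-site occurred in 7.13% of all windows. Among the 12 windows available for the set, this was the only one with a half-site, and none held a pair of half-sites within 13 bases of each other (0.0639% of all windows). Of Rev1, whose window lies inside the annotated gene at chr1:38052786-38129921 on the minus strand, only the E-box is shown. CACGTG occurred in 6.02% of all windows, and the Rev1 window also holds 2 GC boxes. A match describes the letters and says nothing of binding. The first stretch below is at chr13:96519399-96519428 and the second at chr1:38129854-38129883.
Polk half-site: catgtagcttGAACTAGCCTcaaacttatt
Rev1 E-box: cagccgcacggtCACGTGcagccgaggcgc

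Polk encodes polymerase kappa, an inserter that copies past bulky adducts in the minor groove and takes part in repair synthesis. Its leading probe set read 7.27, 7.31, 7.47 and 7.43 (log2 level, replicates 3 to 6) with cisplatin, against 6.17, 6.57, 6.31 and 5.98 in the controls. Every cisplatin array lay above every control array, and the lowest cisplatin value exceeded the highest control value. The change was 1.11 ± 0.11 (log2 fold change ± SE, 4 arrays against 4; limma, adjusted p = 0.000139), larger than that of 99.3% of all genes. A second Polk probe set, dimmer on these arrays, read 4.54, 4.00, 4.32 and 4.52 with cisplatin, against 3.83, 3.81, 3.82 and 3.70 in the controls. It did not overlap either, at 0.55 ± 0.11, so both readings of Polk were higher but by different amounts. Averaging the 2 probe sets gave 0.83.

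The 5 genes whose levels followed Polk most closely over the 8 arrays were Inf2, Ddias, Dhx16, Mettl21a and Ak1, with Pearson correlations of 0.991 to 0.996. Their own changes ran from 0.54 for Mettl21a to 1.18 for Ak1. The 8 points are 2 groups that share the treatment, so any gene with a clear response correlates with Polk, and 348 genes did so at 0.95 or more.

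Rev1 encodes a deoxycytidyl transferase that inserts C and holds other translesion polymerases at the lesion. It read 8.78, 8.91, 8.86 and 8.84 with cisplatin, against 8.32, 8.57, 8.54 and 8.16 in the controls. All cisplatin arrays were above all control arrays, and the controls were spread more widely (SD of 0.05 with cisplatin and 0.20 in the controls, n = 4 each). The change was 0.45 ± 0.09 (limma, adjusted p = 0.00674), read by the only probe set of the gene. It kept its side of the threshold in all 19 alternative settings, with the smallest value, 0.32, after centring the arrays.

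Polh encodes polymerase eta, the inserter best known for copying past ultraviolet photoproducts and for bypass of platinum crosslinks within a strand. Its leading probe set read 6.37, 6.38, 6.40 and 6.50 with cisplatin, against 6.59, 6.64, 6.52 and 6.58 in the controls. The groups did not overlap, but the gap between them was small, from 6.50 to 6.52. The change of -0.17 ± 0.05 passed narrowly (limma, adjusted p = 0.0485). That call was lost without any 1 of the arrays other than cisplatin replicate 6, at adjusted p-values from 0.0557 without control replicate 5 to 0.122 without control replicate 4. The name of this probe set marks it as one that can match several transcripts. A dimmer probe set of Polh read 4.12, 4.24, 4.31 and 4.15 with cisplatin, against 4.40, 4.40, 4.47 and 4.37 in the controls, a change of -0.20 ± 0.06, and the dimmest was at -0.02 ± 0.08. Over all probe sets 16.3% passed the test, and of the 20 read here 3 were higher and 2 lower. The dimmer set of Polh had an adjusted p = 0.0447 and the leading one 0.0656 by limma over all 28898 probe sets, so the readings of Polh were similar in size in 2 of its 3 probe sets and lay on either side of the threshold.

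Poli encodes polymerase iota, an error-prone relative of polymerase eta that pairs with it in some bypass reactions. It read 7.82, 7.86, 7.96 and 7.94 with cisplatin, against 7.96, 7.96, 7.98 and 7.86 in the controls. The groups overlapped, and the 95% interval of the change ran from -0.17 to 0.08 on the log2 scale. Poli passed only after centring the arrays, at -0.18 (limma, adjusted p = 0.0329).

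**Figure D2:**
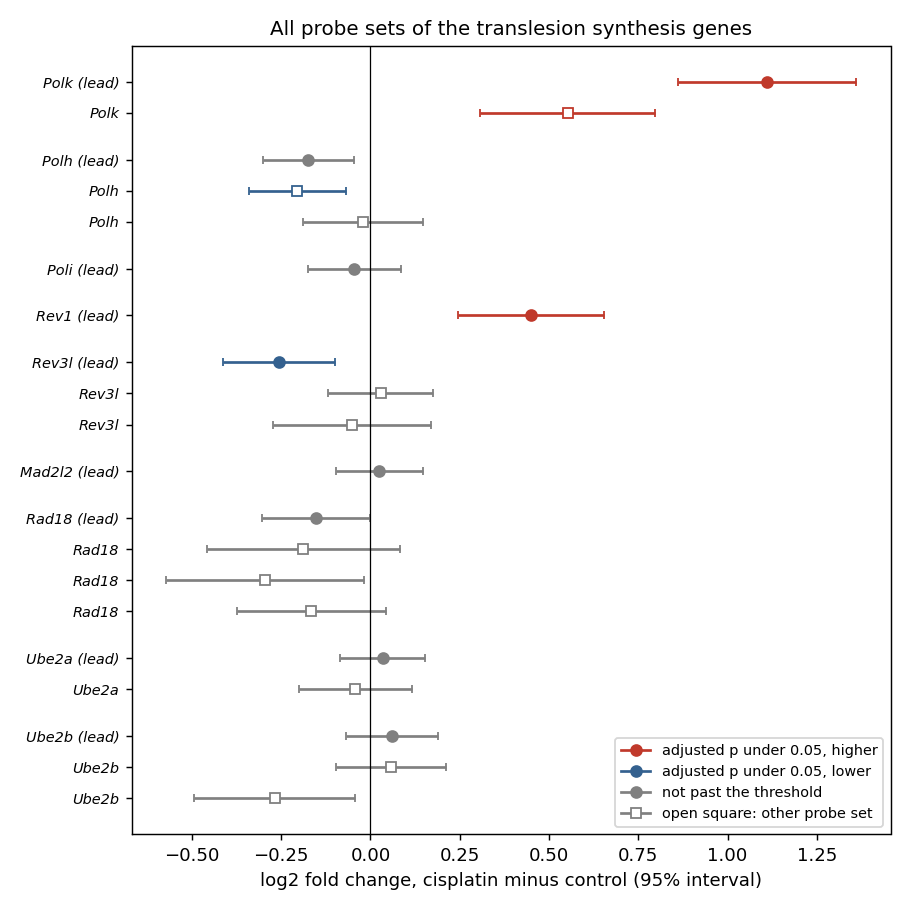
Log2 fold change (cisplatin minus control) of all 20 probe sets of the 9 genes with 95% intervals, circles for leading and open squares for other probe sets, coloured by the test over all probe sets. Both Polk probe sets and Rev1 are to the right of 0, all 4 Rad18 probe sets are to the left of it without passing, and the leading Polh probe set is grey because its adjusted p over all probe sets was 0.0656.

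Rev3l encodes the catalytic subunit of polymerase zeta, which extends from the base placed opposite a lesion and is needed for embryonic development in the mouse. Its leading probe set read 8.35, 8.16, 8.10 and 8.29 with cisplatin, against 8.52, 8.54, 8.39 and 8.47 in the controls. The highest cisplatin array was just under the lowest control array. The change was -0.26 ± 0.07 (limma, adjusted p = 0.0272). Removing cisplatin replicate 4 or 5 ended the call (adjusted p = 0.0717 and 0.0708), and so did removing control replicate 3 or 4 (0.0733 and 0.0738). The other 2 probe sets were at 0.03 and -0.05, with means of 3.05 and 3.13 with cisplatin and 3.03 and 3.18 in the controls, near the 3.10 of background probes, and averaging all 3 ended the call (-0.09, adjusted p = 0.282). At 144 kb Rev3l is the longest of the 10 genes and the only one over 100 kb, a length above which 26.9% of 2129 genes were lower; the part of length in its change was not tested.

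Mad2l2 encodes REV7, which bridges REV3L and REV1 and also serves the shieldin complex at DNA ends. It read 7.98, 8.01, 8.05 and 8.00 with cisplatin, against 7.96, 7.98, 7.95 and 8.07 in the controls. The groups overlapped, with a change of 0.02 ± 0.05 and a 95% interval from -0.09 to 0.14. The subunit genes that polymerase zeta shares with polymerase delta did not pass either, Pold2 at 0.03 ± 0.05 and Pold3 at -0.11 ± 0.07. Of the 4 genes of the polymerase zeta complex, Rev3l alone was called. Whether its change differed from that of the other 3 was not tested, and Pold3 passed after centring (-0.24, adjusted p = 0.0391).

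Rad18, the ligase gene for PCNA ubiquitination, read 7.05, 6.88, 6.97 and 7.02 with cisplatin, against 7.27, 7.03, 7.14 and 7.09 in the controls. Control replicate 4 lay among the cisplatin arrays, and the change was -0.15 ± 0.07 (limma, adjusted p = 0.144). The other 3 Rad18 probe sets were at -0.17, -0.19 and -0.30, all negative, and none passed on its own (adjusted p = 0.290, 0.362 and 0.148). Averaging the 4 gave -0.20 with an adjusted p = 0.0439, and centring gave -0.28 with an adjusted p = 0.0146.

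Ube2a and Ube2b encode closely related RAD6 enzymes, the ubiquitin-conjugating partners of RAD18. Ube2a read 10.94, 11.02, 10.89 and 10.92 with cisplatin, against 10.92, 10.92, 10.89 and 10.90 in the controls. Ube2b read 10.21, 10.15, 10.24 and 10.15 with cisplatin, against 10.12, 10.17, 10.18 and 10.03 in the controls. Both sets of values overlapped, with 95% intervals of the change from -0.08 to 0.15 for Ube2a and from -0.06 to 0.18 for Ube2b. The dimmest probe set of Ube2b was at -0.27 ± 0.10 (adjusted p = 0.107 over all probe sets).

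The wider pathway was followed through 3 lists. Of 23 measured partners of the PCNA ubiquitin switch and of damage tolerance, 6 were lower and 1 higher, with a median of -0.04, against 7.69% lower and 11.6% higher over all genes. None of the 23 lay below background in both groups. In the fit without the genes that did, 6 were lower and 2 higher, beside 1491 lower and 2264 higher of 11739 genes. The PCNA polyubiquitin ligase genes Hltf and Shprh fell on the log2 scale. Hltf was at -0.46 ± 0.06 (limma, adjusted p = 0.00042) and Shprh at -0.31 ± 0.06 (limma, adjusted p = 0.00417). Rnf8 of the same list was at 0.01 ± 0.05 (limma, adjusted p = 0.917). The average of the Shprh probe sets did not pass (-0.09, adjusted p = 0.291). Zranb3, a translocase that remodels stalled forks, was lower at -0.32 ± 0.05. The deubiquitinase genes Usp7 and Usp10 were at -0.32 ± 0.05 and -0.37 ± 0.06, and the ligase gene Huwe1 at -0.24 ± 0.05. The call of Huwe1 was lost by its most variable probe set (adjusted p = 0.0562). Zranb3 (149 kb), Huwe1 (135 kb) and Smarcal1 (100.1 kb, not called) are over 100 kb, a length above which 26.9% of 2129 genes were lower. The part of length in the changes of Zranb3 and Huwe1 was not tested.

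Rpa2, a subunit of the protein that coats single-stranded DNA, was the higher gene at 0.19 ± 0.05, a call lost after centring (0.06, adjusted p = 0.438), by its most variable probe set (adjusted p = 0.0854), and when cisplatin replicate 3 (adjusted p = 0.0579), cisplatin replicate 6 (0.0611), control replicate 3 (0.0659) or control replicate 5 (0.0688) was left out. Pcna, the clamp itself, was at 0.04 ± 0.05. Usp1, a deubiquitinase of PCNA, was at -0.10 ± 0.05 (limma, adjusted p = 0.217). It passed after centring, with an intensity trend and by an unmoderated statistic (adjusted p = 0.0143, 0.0367 and 0.0442).

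**Figure D3:**
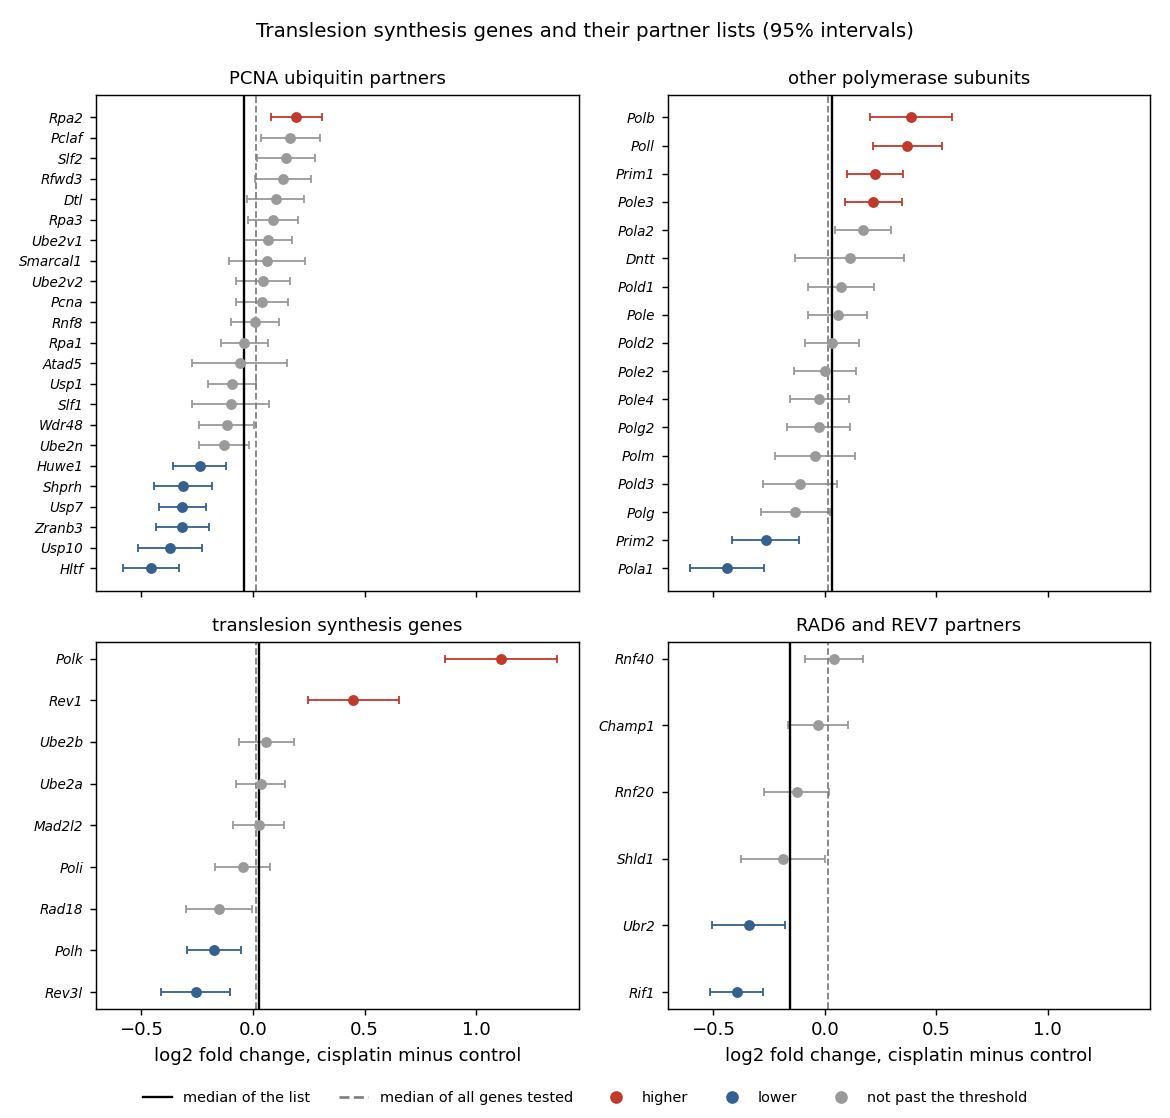
Log2 fold change (cisplatin minus control) with 95% interval for the 9 translesion synthesis genes and the 3 partner lists, with red for higher and blue for lower genes by the test over all genes, a solid line for the list median and a dashed line for the median of all genes. Polk at 1.11 has the largest change of the 4 panels, and 6 of the 7 called PCNA partners are lower.

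Among 17 measured subunits of other DNA polymerases 4 were higher and 2 lower (11.6% and 7.69% over all genes), with a median of 0.03. Without genes below background in both groups, 5 of 16 were higher and 2 lower, beside 2264 and 1491 of 11739 genes. The higher ones include the repair polymerase genes Polb at 0.39 ± 0.08 and Poll at 0.37 ± 0.07, and the call of Polb was lost by its most variable probe set (adjusted p = 0.0973). The primase subunit gene Prim1 and the polymerase epsilon subunit gene Pole3 were at 0.23 ± 0.06 and 0.22 ± 0.06. Pola1, the catalytic subunit of polymerase alpha, was lower at -0.44 ± 0.07, and Prim2, the large primase subunit, at -0.27 ± 0.07. Pola1 spans 328 kb and Prim2 216 kb, and 26.9% of the 2129 genes over 100 kb were lower. The part of length in these 2 changes was not tested. Leaving out cisplatin replicate 6, control replicate 4 or control replicate 5 reduced the 6 calls to 3 each time. Prim1, Pole3 and Prim2 were among the calls so lost, at adjusted p-values of 0.0523 to 0.064, and centring also ended those of Prim1 and Pole3 (adjusted p = 0.27 and 0.309). Pole3 was lost without cisplatin replicate 3 as well (adjusted p = 0.0535) and by the mean of its probe sets (0.0651), and Prim2 without cisplatin replicate 5 (0.0528) or control replicate 3 (0.0616).

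Of 6 measured further partners of the RAD6 enzymes and of REV7, 2 were lower and none higher, with a median of -0.16. Over all genes 7.69% were lower and 11.6% higher. None of the 6 lay below background in both groups. Without the genes that did, the 6 gave the same counts, beside 1491 lower and 2264 higher of 11739 genes. At an unadjusted p under 0.05 the limma counts of the 6 were the same. Ubr2, a ligase that works with RAD6 in protein turnover, was at -0.34 ± 0.07 and Rif1, a factor of replication timing and end protection, at -0.39 ± 0.05 (adjusted p = 0.00888 and 0.000681). Shld1 of shieldin was at -0.19 ± 0.08 (adjusted p = 0.167).

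The size of the Polk change can be read beside the general damage response on the same arrays. Mdm2 and Cdkn1a, canonical p53 targets, were at 1.48 ± 0.12 and 1.22 ± 0.12. On the cisplatin arrays Hprt was at 4.84 ± 0.16 (SD, n = 4), and on the control arrays at 4.60 ± 0.37; without an HPRT-proficient sample this level does not check the label.

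The arrays of 1 group correlated at 0.997 to 0.998 over all genes and arrays of different groups at 0.992 to 0.995. Of 9 measured ES cell markers none was below background, 5 were lower and none higher. Over all genes, those below background included, 7.69% were lower. The summed level of the 9 was 14.67 to 14.71 with cisplatin and 14.78 to 14.83 in the controls (log2 of the summed linear levels). Of 14 feeder fibroblast markers 9 lay below background in both groups (Col1a2, Dcn, Lum, Pdgfra, Pdgfrb, Postn, Twist2, Fap and Fbln2). Of the 14, 3 were called higher, against 11.6% of all genes: Thy1, Mmp2 and Fbln2, the last at 2.30 with cisplatin and 2.10 in the controls and so under the 3.10 of background probes on both sides. Col1a1, Col3a1 and S100a4, all above background, were at -0.09, -0.06 and 0.18 and were not called. The summed level of the 14 was 7.43 to 7.75 with cisplatin and 7.20 to 7.40 in the controls. None of 6 endoderm markers passed by limma, and 3 of the 6 lay below background in both groups (Gata4, Sox17 and Foxa2). Of the 6, only 1 had an unadjusted p under 0.05, Sox17, at 2.79 with cisplatin and 3.05 in the controls. The summed level of the 6 was 5.65 to 6.00 with cisplatin and 5.77 to 6.19 in the controls. The part of these shifts in the changes of Polk, Rev1, Rev3l and Polh was not tested.

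**Figure D4:**
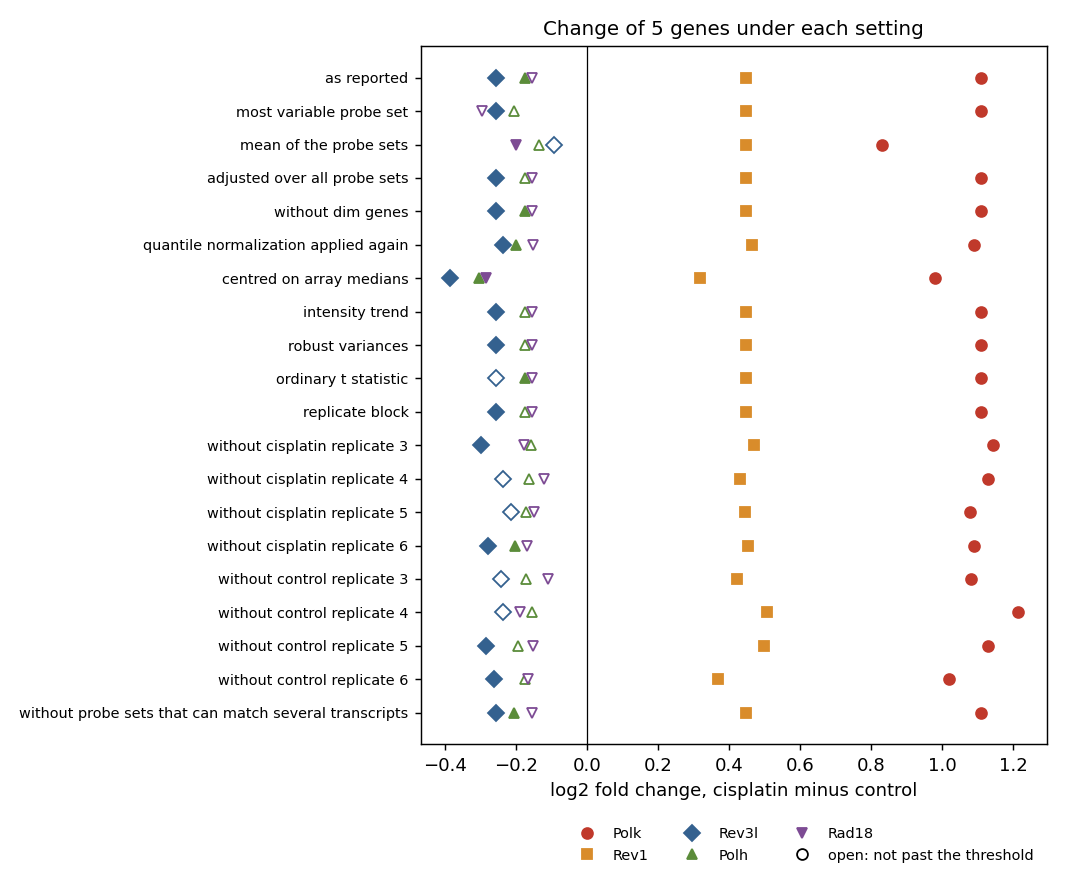
Log2 fold change (cisplatin minus control) of Polk, Rev1, Rev3l, Polh and Rad18 as reported and under each alternative setting, filled where the adjusted p is under 0.05 and open where it is not. Polk and Rev1 are filled in every row, while Rev3l and Polh open in several and Rad18 fills in 2.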

How the data were processed

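The table the authors deposited holds log2 values for 45141 probe sets on 8 arrays. The submitters' processing notes name RMA (background correction, normalization between arrays, summary per probe set) and limma, with no versions given. Per the labels, total RNA was extracted with a kit that keeps small RNA, and messenger RNA was amplified and biotin-labelled by priming at the 3′ end, so changes outside the 3′ probes are not seen. Normalization between arrays assumes most transcripts keep their level.

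Probe sets with 1 gene in the platform annotation (28898) were named by the current RefSeq symbol. Groups come from the sample titles. The probe set with the highest mean stood for a gene, and the groups were compared with limma 3.58.1 in R 4.3.3 (lmFit, eBayes, group only) and Benjamini-Hochberg adjustment over 17097 genes and no filter on dim genes. Background is the mean of nonspecific control probes with 24 G or C bases, 3.10. Depth has no meaning for arrays, and 4 per group limit the precision (median SE 0.08). On simulated data with these means and spreads, 99 of 100 genes changed by 1 on the log2 scale and 75 of 100 changed by 0.5 were recovered, with 7 false calls. No other genes were changed in the simulation, while 3303 were called in the data, so these recovery rates need not hold here.

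The members and lists were chosen with earlier results of these data known. Named genes were all members; the called genes of each list, or the 3 with the smallest p; Pold2, Pold3, Pcna and Usp1; Hprt, Mdm2 and Cdkn1a; and the 5 genes most correlated with Polk. Rnf8 and Smarcal1 of the PCNA list were also named, outside this rule. Alternatives covered the probe set, dim genes, normalization, centring, the variance model, the replicate number as a block, and leaving out single arrays. Another, chosen after seeing the data, left out probe sets that can match several transcripts. Figures used matplotlib 3.10.9 (Python 3.11.15).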

Additional observations from a re-analysis of the deposited data

Results flagged for a closer look

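Of 40 groups of 4 arrays (20 probe sets in 2 groups), 1 held an array far from the rest by Dixon's criterion, and chance marks about 1 in 20. On the dimmer probe set of Polk, control replicate 6 read 3.70, while the other control arrays read 3.81 to 3.83.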

How the results depend on the processing

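The calls of Polk and Rev1 held in all 19 alternatives, with changes from 0.83 to 1.21 and from 0.32 to 0.51, as did the count of 2 higher genes among the 9. The count of lower genes among the 9, 2 as reported, was 1 with the most variable probe set, the mean of the probe sets, adjustment over all probe sets, an intensity trend, robust variances, an ordinary t statistic or the replicate block, 4 after centring, and 0 to 2 with single arrays left out. Polh lost its call by the most variable probe set (-0.20), the mean of the probe sets (-0.13), and, at an unchanged -0.17, under adjustment over all probe sets, an intensity trend, robust variances and the replicate block; with single arrays left out it ran from -0.20 to -0.16. Rev3l lost its call by the mean of the probe sets (-0.093) and, at -0.26, with an ordinary t statistic, and ran from -0.30 to -0.21 with single arrays left out. Rad18 passed by the mean of the probe sets (-0.20) and after centring (-0.28), and Poli after centring (-0.18). Centring, which by construction lowers every change by 0.13, gave 1088 higher and 3925 lower genes in all. With the arrays centred, the median gene of all 17097 stood at -0.12 on the log2 scale, against 0.01 as deposited. Calls made or lost under centring include this shift. Centring made 11 called PCNA partners, all lower, and 4 called RAD6 and REV7 partners. An intensity trend made 12 called PCNA partners. The other polymerase subunits gave 3 to 6 calls with single arrays left out. Where not stated, the cause of a change was not tested.

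The labels do not say that a replicate number marks a shared source, and whether the numbers pair the samples is not settled: deviations of same-numbered arrays correlated at 0.199, 0.181 and 0.200 for numbers 3 to 5 and at 0.065 for number 6, and 7 of 8 arrays correlated best with their own number, a hint from the data and not the design. The replicate block gave 2111 higher and 1336 lower genes and, beside Polh at -0.17 (adjusted p = 0.0725), changed no call among the 9. Genes dim on all arrays can hide a fall, but no leading probe set of the 9 lay below background.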

Other observations

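The control arrays differed among themselves in Polk and Rev1 in the same order. Both genes were highest on control replicate 4, then 5, 3 and 6, and so were Mdm2, at 8.48, 8.47, 8.16 and 8.01, and Hprt, at 4.99, 4.84, 4.37 and 4.21, but not Cdkn1a, at 7.55, 7.44, 7.19 and 7.45 on the same arrays. That order, taken from Polk itself, held for 5.58% of all 17097 genes. Among the 9 translesion genes Polk holds it by definition, and Rev1 was the only other gene that did. The order held for 7.84% of the 1989 higher genes, 5.94% of the 1314 lower and 5.22% of the 13794 not called. On the cisplatin arrays the 2 genes did not share an order. Polk was highest on replicate 5, then 6, 4 and 3, and Rev1 on replicate 4, then 5, 6 and 3.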
